A study of Mus musculus with 18 samples.

Results

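The liver expression of 10 genes of innate sensing was measured: *Tlr2*, *Tlr4*, *Cd14*, *Lbp*, *Il1b*, *Il1r1*, *Il1rn*, *Tnf*, *Nfkbia* and *Tnfaip3*. They were taken by gene symbol for their place in the Toll-like receptor (TLR), interleukin-1 (IL-1) and NF-kB pathway, and all 10 were found among the 37303 genes of the RNA-Seq table. The choice was made with earlier results of these data known, so counts of changed genes among them are description and not independent support. The samples were livers of 18 C57BL/6J mice in 6 groups of 3. The mice were wild type (WT), or lacked both copies of *Gcn2* (*Gcn2*-/-) or of *Atf4* (*Atf4*-/-) in the whole body, and received asparaginase (ASNase) or PBS. ASNase, an enzyme drug that depletes circulating asparagine, was given at 3 IU per gram body weight into the peritoneum on each of 8 days, and livers were taken 7.5 h after the last injection. The mice were 8 to 16 weeks old by their sample labels and 8 to 12 weeks by the growth protocol, and males were 1 or 2 of the 3 mice in each group. GCN2 senses a shortage of amino acids and phosphorylates the initiation factor eIF2, upon which more of the transcription factor ATF4 is made. The comparisons ask how ASNase changed each gene within a strain, and whether that change or the level without ASNase differed between strains.

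TLRs are membrane receptors for microbial molecules. LBP carries lipopolysaccharide to CD14, which passes it on to TLR4, while TLR2 recognizes bacterial lipoproteins, and both receptors signal through NF-kB, a family of transcription factors held in the cytoplasm by IkB proteins. The IL-1 receptor uses the same adaptor and kinases as the TLRs, and NF-kB raises the transcription of its own inhibitors, so the pathway holds a ligand, receptors, a receptor blocker and negative feedback. In liver, Kupffer cells are the main resident macrophages, and hepatocytes secrete LBP and respond to IL-1.

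The table holds 1 Cuffdiff estimate per group, as FPKM, the number of sequenced fragments scaled to transcript length and library size, with the lower and upper bounds of an interval that are printed in parentheses. No value of a single mouse was available for these comparisons, so none has a replicate check, no p-value is given, and read depth cannot be read from the table. A gene was called different when both estimates were above 0 with status OK, FPKM was over 3 in either group, the log2 difference of FPKM + 0.1 was over 1.5 in size and the intervals did not overlap. Each ± after a log2 difference is the combined error, the root of the summed squared distances from each estimate to its upper bound on the log2 scale. The intervals of the 10 genes were wide, with a median distance from estimate to upper bound of 67.4% of the estimate and a range from 41.0% to 284%. Comparisons that share a group are not independent of each other.

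The authors reported read density plots in which a *Gcn2* exon was missing in *Gcn2*-/- mice and *Atf4* in *Atf4*-/- mice. They also measured *Atf4* mRNA by RT-qPCR. Gene-level FPKM did not check the deletions. *Eif2ak4*, which encodes GCN2, was at 2.19 to 3.14 FPKM in all 6 groups with overlapping intervals. *Atf4* was at 32.3 FPKM (19.1 to 45.5) in PBS-treated *Atf4*-/- livers, against 50.4 (29.7 to 71.1) in PBS-treated WT livers. Hepatocyte markers of the labelled tissue were abundant in every group, with a summed FPKM of 9554 to 27289 over 10 genes. Skeletal muscle markers set the strains apart, with a summed FPKM over 15 genes of 1043 and 1472 in the WT groups, 81.7 and 185 in the *Atf4*-/- groups, and 6.22 and 9.42 in the *Gcn2*-/- groups. The part of this muscle RNA in differences between strains was not tested, and within each strain both treatments lay on the same side.

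The bases upstream of 7 of the 10 genes were read from RefSeq promoters (GRCm38.p6), which gave 11 start sites, and *Tlr4*, *Lbp* and *Cd14* had no entry. The kB consensus, the letters of a binding site for NF-kB, was searched on both strands in the 250 bases before each start. It was found in 7.25% of all 32851 promoters and before at least 1 start of *Tlr2*, *Il1r1*, *Nfkbia* and *Tnfaip3*. A narrower form of the consensus was found in 0.356% of promoters and before *Nfkbia* alone among the 7 genes. TGANTCA, an AP-1 site, was found in 6.75% of promoters and before *Il1rn* and *Tnfaip3*. TATAAA, the TATA box, was found in 12.4% of promoters and before *Il1b*, *Tnf* and *Tnfaip3*. TTGCNNAA, a C/EBP site, was in 9.56% of promoters and before *Il1r1*, and TGATGNAA, a C/EBP-ATF site, was in 3.45% and before the second start of *Tnfaip3*. A match describes letters only, and a window without a match says nothing about the factor.

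The stretches that carry these letters are shown for 5 genes, 5′ to 3′ on the strand of the gene, because *Nfkbia*, *Tlr2* and *Tnfaip3* hold the kB consensus and the cytokine genes *Il1b* and *Tnf* hold a TATA box. *Nfkbia* lies at chr12:55492648-55492897 (minus strand), *Tlr2* at chr3:83841768-83841858 (minus), *Tnfaip3* at chr10:19015526-19015555 and chr10:19015411-19015440 (minus), *Il1b* at chr2:129371140-129371259 (minus) and *Tnf* at chr17:35202008-35202127 (minus). Capitals mark the kB consensus in the first 4 sequences and the TATA box in the last pair. The 30-base stretches of *Tnfaip3* precede the RefSeq start but lie inside the gene as GENCODE vM21 draws it.
Nfkbia: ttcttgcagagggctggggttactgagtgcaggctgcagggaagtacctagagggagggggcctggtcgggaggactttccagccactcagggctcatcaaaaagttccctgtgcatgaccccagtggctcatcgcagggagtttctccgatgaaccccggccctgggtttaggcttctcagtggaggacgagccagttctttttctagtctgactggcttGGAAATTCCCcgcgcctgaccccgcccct
Tlr2: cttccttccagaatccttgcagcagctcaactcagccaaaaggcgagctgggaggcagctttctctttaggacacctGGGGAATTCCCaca
Tnfaip3, 145 to 116 bases before the start: atgcccaggtgactcacgcgGGGACACCCC
Tnfaip3, 30 to 1 bases before the start: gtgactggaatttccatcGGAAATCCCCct
Il1b: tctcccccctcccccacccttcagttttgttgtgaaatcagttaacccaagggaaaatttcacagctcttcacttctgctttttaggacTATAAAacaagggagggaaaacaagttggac
Tnf: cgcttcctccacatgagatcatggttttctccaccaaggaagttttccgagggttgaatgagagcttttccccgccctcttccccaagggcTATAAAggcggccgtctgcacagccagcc
The *Nfkbia* match begins 29 bases before the start, and the *Tnfaip3* matches begin 125 and 12 bases before it. The *Tlr2* letters are a pair of overlapping matches that begin 173 and 172 bases before the start. The TATA boxes begin 31 bases before the *Il1b* start and 29 bases before the *Tnf* start.

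ASNase left the 10 genes without a call in WT livers and was followed by increases of *Tlr2*, *Cd14*, *Il1r1*, *Il1rn* and *Tnfaip3* in both knockouts and of *Il1b* in *Gcn2*-/- livers. In WT livers 0 of 10 genes were called in either direction, where 0.881% of 9084 testable genes were. Among *Gcn2*-/- livers 6 of 10 were called higher after ASNase (*Tlr2*, *Cd14*, *Il1b*, *Il1r1*, *Il1rn* and *Tnfaip3*), where 1.56% of 9218 genes were. For *Atf4*-/- livers 5 of 10 were called higher (*Tlr2*, *Cd14*, *Il1r1*, *Il1rn* and *Tnfaip3*), where 2.74% of 9485 genes were. Over all 10 genes the median log2 response was -0.35 for WT, 2.61 for *Gcn2*-/- and 1.76 for *Atf4*-/- livers, against medians of -0.01, 0.02 and 0.08 for the testable genes. The FPKM minimum was passed by 4, 8 and 8 of the 10 in the 3 strains. Of those 8, in *Gcn2*-/- livers 4 (*Tlr2*, *Cd14*, *Il1b* and *Tnfaip3*) and in *Atf4*-/- livers 2 (*Tlr2* and *Tnfaip3*) passed it only through the ASNase group, so these could be called in no direction but higher. *Tlr4* and *Tnf* were under 3 FPKM in all 6 groups.

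**Figure D1:**
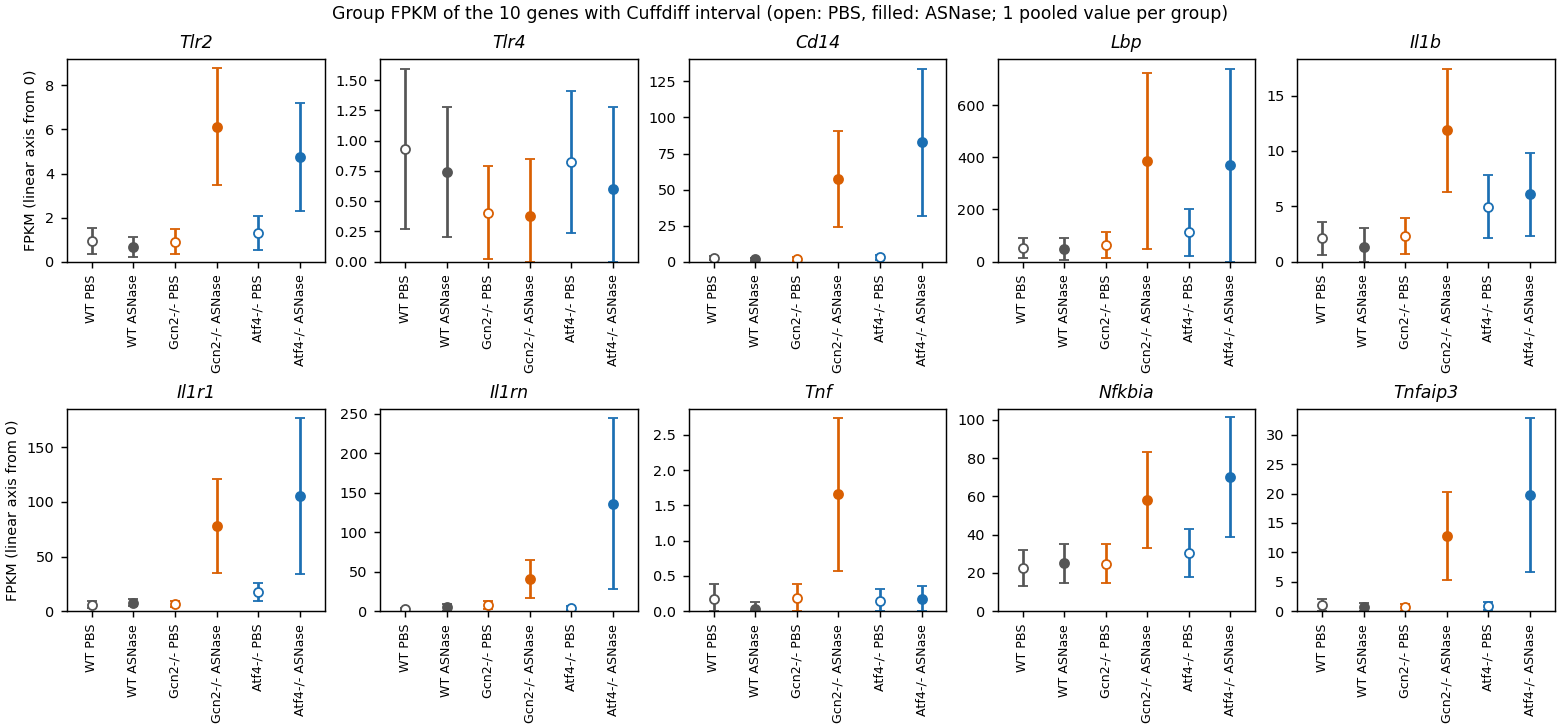
Each panel shows 1 gene, with FPKM on a linear axis from 0, the 6 groups along the horizontal axis, points for the pooled estimate of each group (open for PBS, filled for ASNase) and bars for the Cuffdiff interval. *Cd14*, *Il1r1*, *Il1rn*, *Tlr2* and *Tnfaip3* stand apart in both knockout ASNase groups, *Il1b* is highest at 11.9 FPKM and *Tnf* at 1.66 FPKM in *Gcn2*-/- livers after ASNase, and *Tlr4* stays under 1 FPKM throughout.

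Of the lipopolysaccharide-handling genes, only *Cd14* was called in an ASNase response. *Lbp* had higher values within wide bounds in both knockouts, and *Tlr4* was too low for a change to be detected. *Cd14* encodes the co-receptor that takes lipopolysaccharide from LBP (chr18:36725067-36726798, minus strand). It was at 2.52 FPKM (0.951 to 4.09) in WT PBS and 1.59 (0.512 to 2.66) in WT ASNase livers. It was at 2.07 (0.756 to 3.38) in *Gcn2*-/- PBS and 57.1 (23.7 to 90.6) in *Gcn2*-/- ASNase livers. Its FPKM in *Atf4*-/- livers was 3.05 (1.27 to 4.84) with PBS and 82.6 (31.4 to 134) with ASNase. Both knockout ASNase groups lay above the other 4 groups with no overlap, and they overlapped each other. The ASNase response was 4.72 ± 1.21 log2 in *Gcn2*-/- and 4.71 ± 1.21 in *Atf4*-/- livers, or 27.6-fold and 27.1-fold, against -0.64 ± 1.26 in WT.

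*Lbp*, the secreted lipopolysaccharide carrier made by hepatocytes (chr2:158306493-158332852, plus strand), had the highest level per length of the 10 genes in every group. Its FPKM was 52.3 (13.0 to 91.6) in WT PBS and 49.1 (7.80 to 90.4) in WT ASNase livers. It was 64.4 (14.6 to 114) in *Gcn2*-/- PBS and 387 (49.8 to 724) in *Gcn2*-/- ASNase livers. It was 113 (23.2 to 202) in *Atf4*-/- PBS and 370 (0.228 to 740) in *Atf4*-/- ASNase livers. All 6 intervals overlapped, and the knockout ASNase bounds were so wide that the responses of 2.59 ± 1.68 and 1.71 ± 1.84 log2 were not called.

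*Tlr4*, the signalling receptor for lipopolysaccharide (chr4:66827584-66930284, plus strand), had no group apart from the others. It was at 0.934 FPKM (0.272 to 1.60) in WT PBS, 0.741 (0.206 to 1.28) in WT ASNase, 0.405 (0.0188 to 0.792) in *Gcn2*-/- PBS, 0.375 (0 to 0.845) in *Gcn2*-/- ASNase, 0.825 (0.236 to 1.42) in *Atf4*-/- PBS and 0.598 (0 to 1.28) in *Atf4*-/- ASNase livers. With intervals this close to 0, a change of *Tlr4* was not detectable at this precision. The level of *Cd14* was 2.14 to 5.10 times that of *Tlr4* in WT and PBS-treated livers and 152 and 138 times in the *Gcn2*-/- and *Atf4*-/- ASNase groups.

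*Tlr2*, the lipoprotein receptor (chr3:83836272-83841767, minus strand), was at 0.925 FPKM (0.331 to 1.52) in WT PBS, 0.679 (0.222 to 1.14) in WT ASNase, 0.902 (0.329 to 1.48) in *Gcn2*-/- PBS and 1.28 (0.518 to 2.05) in *Atf4*-/- PBS livers. It was at 6.13 (3.49 to 8.77) in *Gcn2*-/- ASNase and 4.75 (2.28 to 7.22) in *Atf4*-/- ASNase livers. The ASNase groups of the knockouts overlapped each other and none of the other 4. The responses were 2.64 ± 1.03 log2 in *Gcn2*-/- and 1.81 ± 1.09 in *Atf4*-/- livers, and the call in *Atf4*-/- livers rests on the pseudocount, since with 1 FPKM added the response was 1.33.

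Of the IL-1 genes, the receptor rose in both knockouts, the ligand in *Gcn2*-/- livers, and the blocker most in *Atf4*-/- livers. *Il1r1*, the signalling receptor for IL-1 (chr1:40225080-40317257, plus strand), was at 6.09 FPKM (3.30 to 8.88) in WT PBS and 7.64 (4.41 to 10.9) in WT ASNase livers. It was at 6.88 (4.01 to 9.74) in *Gcn2*-/- PBS and 78.0 (35.2 to 121) in *Gcn2*-/- ASNase livers. It was at 17.6 (9.50 to 25.8) in *Atf4*-/- PBS and 105 (34.2 to 177) in *Atf4*-/- ASNase livers. The knockout ASNase groups lay above the other 4. The responses were 3.48 ± 0.99 log2 (11.3-fold) in *Gcn2*-/- and 2.57 ± 1.18 (5.98-fold) in *Atf4*-/- livers, against 0.32 ± 0.89 in WT.

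*Il1b*, the secreted IL-1 ligand (chr2:129364570-129371139, minus strand), was at 2.11 FPKM (0.616 to 3.61) in WT PBS and 1.31 (0 to 3.03) in WT ASNase livers. It was at 2.29 (0.680 to 3.91) in *Gcn2*-/- PBS and 11.9 (6.28 to 17.4) in *Gcn2*-/- ASNase livers. It was at 4.96 (2.14 to 7.78) in *Atf4*-/- PBS and 6.08 (2.34 to 9.81) in *Atf4*-/- ASNase livers. The *Gcn2*-/- ASNase value was the highest, and it overlapped both *Atf4*-/- groups. The response was 2.32 ± 1.18 log2 in *Gcn2*-/- livers, which was called, and 0.29 ± 1.19 in *Atf4*-/- livers, which was not.

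*Il1rn* encodes the IL-1 receptor antagonist, which occupies the receptor without signalling (chr2:24336853-24351494, plus strand). It was at 2.17 FPKM (0.355 to 3.99) in WT PBS and 5.02 (0.559 to 9.49) in WT ASNase livers. It was at 7.94 (3.06 to 12.8) in *Gcn2*-/- PBS and 40.5 (16.5 to 64.4) in *Gcn2*-/- ASNase livers. It was at 4.10 (1.09 to 7.12) in *Atf4*-/- PBS and 136 (27.9 to 244) in *Atf4*-/- ASNase livers. The knockout ASNase groups again lay above all others, and they overlapped each other. The response was 5.02 ± 1.54 log2 (33.1-fold) in *Atf4*-/- livers and 2.33 ± 1.22 (5.09-fold) in *Gcn2*-/- livers, against 1.17 ± 1.71 in WT. The *Gcn2*-/- response was above that of WT by 1.16 ± 2.10, which is within the combined error. AP-1 letters lie 141 bases before its first start, at the capitals in the stretch chr2:24336680-24336779 (plus strand).
Il1rn: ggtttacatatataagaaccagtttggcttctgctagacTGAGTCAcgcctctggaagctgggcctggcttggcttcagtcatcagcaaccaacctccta

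The level of *Il1rn* was 1.03 times that of *Il1b* in WT PBS and 3.84 times in WT ASNase livers. The ratio was 3.46 in *Gcn2*-/- PBS and 3.41 in *Gcn2*-/- ASNase livers, so ligand and blocker were at a like ratio with and without ASNase there. The *Atf4*-/- ratio was 0.827 with PBS and 22.4 with ASNase. The ratios have no interval of their own.

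**Figure D2:**
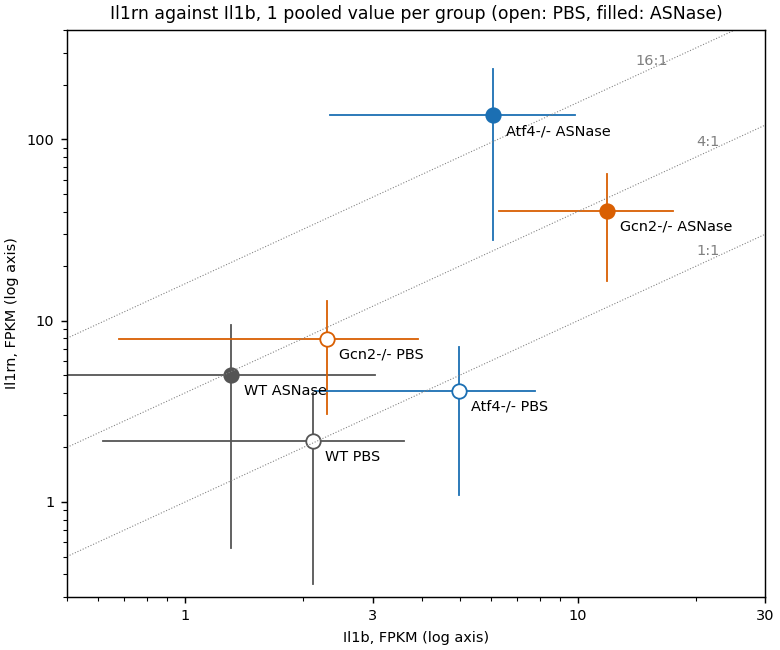
*Il1rn* is plotted against *Il1b*, both in FPKM on log axes, with 1 point per group (open for PBS, filled for ASNase), bars for the Cuffdiff intervals cut off at the axis where a bound is lower, and dotted lines at ratios of 1, 4 and 16. The *Atf4*-/- ASNase point lies above the line of 16 at a ratio of 22.4, and the WT ASNase point and both *Gcn2*-/- points lie near the line of 4.

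*Tnf*, the gene of the cytokine TNF (chr17:35199381-35202007, minus strand), was near the floor of the measurement. It was at 0.171 FPKM (0 to 0.388) in WT PBS, 0.0332 (0 to 0.127) in WT ASNase, 0.180 (0 to 0.381) in *Gcn2*-/- PBS, 0.148 (0 to 0.321) in *Atf4*-/- PBS and 0.168 (0 to 0.363) in *Atf4*-/- ASNase livers. The *Gcn2*-/- ASNase livers had 1.66 (0.576 to 2.74), above the other 5 groups with no overlap. At under 3 FPKM it could not be called. Its difference from *Gcn2*-/- PBS livers was 2.65 ± 1.36 log2, and the *Atf4*-/- ASNase livers differed from the *Gcn2*-/- ASNase livers by -2.71 ± 1.38.

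The feedback inhibitors of NF-kB were unequal in size of response. *Nfkbia* encodes IkB-alpha, which binds NF-kB and keeps it out of the nucleus (chr12:55489410-55492647, minus strand). Its FPKM was 22.5 (13.1 to 31.8) in WT PBS, 25.0 (14.7 to 35.4) in WT ASNase, 24.7 (14.6 to 34.9) in *Gcn2*-/- PBS and 30.3 (17.6 to 42.9) in *Atf4*-/- PBS livers. It was 58.2 (32.9 to 83.4) in *Gcn2*-/- ASNase and 70.0 (38.6 to 101) in *Atf4*-/- ASNase livers. These were the 2 highest values, and each overlapped the PBS group of its own strain. The responses of 1.23 ± 0.86 and 1.21 ± 0.88 log2 were under 1.5 and were not called. The *Atf4*-/- ASNase livers were 1.48 ± 0.88 above the WT ASNase livers with separate intervals, just under the limit.

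*Tnfaip3* encodes A20, a ubiquitin-editing enzyme that ends NF-kB signalling (chr10:19000910-19015657, minus strand). It was at 1.01 FPKM (0 to 2.08) in WT PBS, 0.734 (0.0365 to 1.43) in WT ASNase, 0.652 (0.0214 to 1.28) in *Gcn2*-/- PBS and 0.893 (0.219 to 1.57) in *Atf4*-/- PBS livers. It was at 12.8 (5.34 to 20.3) in *Gcn2*-/- ASNase and 19.7 (6.62 to 32.8) in *Atf4*-/- ASNase livers, which overlapped each other and none of the other 4 groups. The responses were 4.10 ± 1.47 log2 (19.7-fold) and 4.32 ± 1.37 (22.1-fold). The level of *Tnfaip3* was 0.0264 to 0.0450 times that of *Nfkbia* in WT and PBS-treated livers, and 0.221 and 0.282 times in the *Gcn2*-/- and *Atf4*-/- ASNase groups. Both genes hold the kB consensus before their starts, as printed above.

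**Figure D3:**
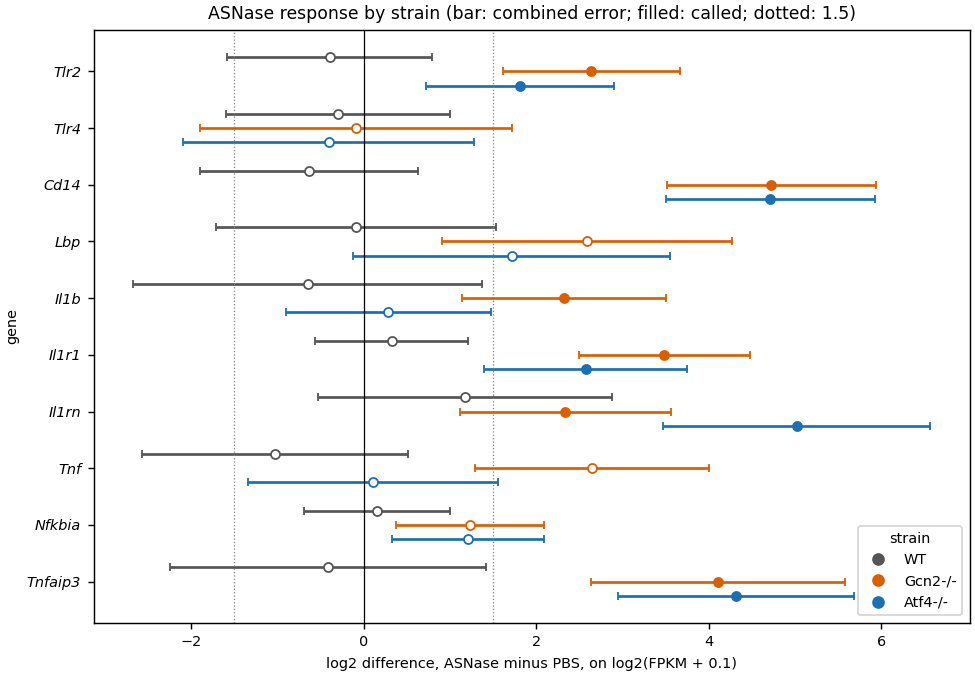
The ASNase response of each gene is shown for the 3 strains as the log2 difference of FPKM + 0.1 between ASNase and PBS, with bars for the combined error, filled points for called responses and dotted lines at 1.5 in either direction. WT points lie between -1.03 and 1.17, while *Cd14* and *Tnfaip3* lie above 4 in both knockouts and *Il1rn* reaches 5.02 in *Atf4*-/- livers.

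Whether a response differed between strains was asked of the difference of the log2 responses itself, which was counted when over 1.5 in size and over its combined error. Against WT, 6 of 10 genes had a higher response in *Gcn2*-/- livers, where 2.57% of 9523 genes did. These were *Cd14* (5.36 ± 1.75), *Tnfaip3* (4.52 ± 2.35), *Il1r1* (3.16 ± 1.33), *Tlr2* (3.03 ± 1.57), *Il1b* (2.97 ± 2.34) and *Lbp* (2.68 ± 2.34). Of these, *Tlr2*, *Cd14*, *Il1b* and *Tnfaip3* passed the FPKM minimum only through the *Gcn2*-/- ASNase group. Against WT, 5 of 10 had a higher response in *Atf4*-/- livers, where 2.87% of 9698 genes did. These were *Cd14* (5.35 ± 1.75), *Tnfaip3* (4.73 ± 2.29), *Il1rn* (3.84 ± 2.30), *Il1r1* (2.25 ± 1.47) and *Tlr2* (2.21 ± 1.61). *Tlr2* and *Tnfaip3* passed the minimum only through the *Atf4*-/- ASNase group, and *Cd14* only through the *Atf4*-/- groups. The minimum therefore favoured a higher response for these genes.

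The responses of a ligand and its blocker differed between the knockouts by more than the combined error, while their ASNase levels had overlapping intervals. PBS levels enter these differences, at 4.96 and 2.29 FPKM for *Il1b* and 4.10 and 7.94 for *Il1rn* in *Atf4*-/- and *Gcn2*-/- livers, also with overlapping intervals. The response of *Il1b* was lower in *Atf4*-/- than in *Gcn2*-/- livers by -2.03 ± 1.67, 1 of 10 genes, where 3.04% of 9684 genes were lower. The response of *Il1rn* was higher in *Atf4*-/- livers by 2.68 ± 1.97, 1 of 10 genes, where 1.55% were higher. For *Tnf* the same difference was -2.54 ± 1.99, but its FPKM was under the minimum. For *Cd14* it was -0.01 ± 1.71, which leaves room for a difference of over 1 log2 unit either way.

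Without ASNase 1 of the 10 genes was called between strains, at intervals too wide to show small differences. The FPKM minimum was passed by 4 of the 10 in the *Gcn2*-/- and 6 in the *Atf4*-/- comparison with WT. Between *Gcn2*-/- and WT livers given PBS, 0 of 10 were called, where 1.04% of 8920 genes were called in either direction. *Il1rn* had the largest difference there, 1.82 ± 1.45 log2 or 3.66-fold, with overlapping intervals. Between *Atf4*-/- and WT livers given PBS, 1 of 10 was called higher, where 0.354% of 9039 genes were. This was *Il1r1*, at 1.52 ± 0.93 log2 and so just inside the limit, and with a pseudocount of 1 FPKM it was at 1.39 and the call was lost. *Il1b*, *Lbp* and *Il1rn* had differences of 1.20 ± 1.26, 1.11 ± 1.58 and 0.89 ± 1.55 there, with overlapping intervals.

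After ASNase the levels of several of the genes were higher in the knockouts than in WT. Between *Gcn2*-/- and WT livers 6 of 10 genes were called higher, where 1.83% of 9423 genes were called higher and 2.59% lower. The genes were *Cd14* (5.08 ± 1.25 log2, 36.0-fold), *Tnfaip3* (3.96 ± 1.47), *Il1r1* (3.33 ± 0.99), *Il1b* (3.09 ± 1.89), *Tlr2* (3.00 ± 1.04) and *Il1rn* (2.98 ± 1.52). Between *Atf4*-/- and WT livers 5 of 10 were called higher, where 2.59% of 9577 genes were called higher and 5.66% lower. The genes were *Cd14* (5.62 ± 1.28 log2, 52.1-fold), *Il1rn* (4.73 ± 1.70), *Tnfaip3* (4.57 ± 1.54), *Il1r1* (3.77 ± 1.14) and *Tlr2* (2.64 ± 1.12). In both comparisons *Tlr2*, *Cd14*, *Il1b* and *Tnfaip3* passed the FPKM minimum only through the knockout group, so these could be called in no direction but higher. *Lbp* was above WT by 2.975 ± 1.75 in *Gcn2*-/- and 2.91 ± 1.88 in *Atf4*-/- livers, and *Il1b* by 2.13 ± 1.97 in *Atf4*-/- livers. Their intervals overlapped, so they were not called. Between the knockouts after ASNase 0 of 10 were called, where 3.19% of 9355 genes were called in either direction. *Il1rn* was 1.75 ± 1.43 higher and *Il1b* was -0.95 ± 1.10 in *Atf4*-/- relative to *Gcn2*-/- livers, both with overlapping intervals.

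Other genes of the pathway were listed by role, also with earlier results of these data known, and 95 of 96 were found in the table. Of these, 0 were called in WT livers after ASNase, 12 were called higher and 0 lower in *Gcn2*-/- livers, and 11 were called higher and 0 lower in *Atf4*-/- livers. The shares called higher over all testable genes were 1.56% and 2.74%, and the FPKM minimum was passed by 53, 59 and 61 of the 95 in WT, *Gcn2*-/- and *Atf4*-/- livers. In *Gcn2*-/- livers *Relb*, *Nfkb2*, *Nfkbiz*, *Zc3h12a*, *Il1a*, *Cxcl2* and *Ccl2* passed it only through the ASNase group. The same held for *Relb*, *Nfkb2*, *Zc3h12a* and *Cxcl2* in *Atf4*-/- livers, and such genes could be called in no direction but higher. The median log2 response over the 95 was -0.07, 0.49 and 0.38 in the 3 strains. None of the 8 lipopolysaccharide co-receptor and adaptor genes, 21 kinases and ubiquitin ligases or 9 TNF pathway genes was called in an ASNase response, where the minimum was passed in *Gcn2*-/- and *Atf4*-/- livers by 5 and 5, by 16 and 19, and by 7 and 7 of them. The kinase *Ikbke* went from 13.2 to 50.1 FPKM in *Gcn2*-/- and from 9.35 to 32.3 in *Atf4*-/- livers with overlapping intervals. Against WT livers after ASNase, *Ikbke* was called higher in *Gcn2*-/- (2.66 ± 1.28) and not in *Atf4*-/- livers (2.03 ± 1.33). *Irak3*, an inhibitory member of the IRAK kinases, was at 0.509 and 6.15 FPKM, and at 0.613 and 10.4, with lower bounds of 0. Of the 9 other TLRs, 0 and 1 passed the minimum in these responses, so they could hardly be called. Against WT livers after ASNase, 13 of the 95 were called higher and 1 lower in *Gcn2*-/- livers. In *Atf4*-/- livers 11 were called higher and 2 lower. The minimum was passed by 61 of the 95 in each, and 1.83% and 2.59% of testable genes were called higher. The higher calls included genes that passed it only through the knockout group, such as *Relb*, *Nfkb2* and *Cxcl2*. After ASNase, *Tlr5*, the flagellin receptor, was called lower than in WT livers in *Gcn2*-/- (-1.95 ± 1.12) and *Atf4*-/- livers (-3.01 ± 1.09), and *Tlr12* in *Atf4*-/- livers (-2.89 ± 1.76). In these comparisons 2.59% (*Gcn2*-/-) and 5.66% (*Atf4*-/-) of testable genes were called lower. *Tlr5*, at 3.04 FPKM in WT, and *Tlr12*, at 3.62, passed the minimum only through the WT group, so they could be called in no direction but lower. *Ikbke*, *Irak3*, *Tlr5* and *Tlr12*, and *Lcn2* below, were picked for mention after their values were seen.

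Of the 5 NF-kB subunits, 2 were called higher in both knockouts, *Relb* and *Nfkb2*, both of the non-canonical branch. The FPKM minimum was passed by 4 of the 5 in each knockout, and 1.56% (*Gcn2*-/-) and 2.74% (*Atf4*-/-) of testable genes were called higher. *Relb* went from 0.881 to 3.76 FPKM in *Gcn2*-/- and from 1.21 to 6.16 in *Atf4*-/- livers. *Nfkb2* went from 2.11 to 9.10 and from 2.56 to 9.24. Of the 13 other inhibitors and feedback genes, 11 passed the minimum in each knockout and 2 were called higher in both. *Zc3h12a*, an RNase that degrades cytokine mRNA, responded by 2.34 ± 1.38 log2 in *Gcn2*-/- and 2.77 ± 1.35 in *Atf4*-/- livers. *Nfkbiz*, a nuclear IkB protein, responded by 2.36 ± 0.91 and 2.36 ± 0.89.

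Of the 14 other genes of the IL-1 family and inflammasome, 2 were called higher in *Gcn2*-/- and 0 in *Atf4*-/- livers, where 1.56% and 2.74% of testable genes were. The FPKM minimum was passed by only 4 and 3 of the 14, so few of them could be called in either strain. *Il1a*, the other IL-1 ligand, was at 2.28 FPKM with PBS and 9.10 with ASNase in *Gcn2*-/- livers, and at 2.86 and 2.32 in *Atf4*-/- livers. *Il18bp*, which encodes the binding protein that neutralizes IL-18, was at 7.75 and 38.0 FPKM in *Gcn2*-/- and at 12.6 and 16.6 in *Atf4*-/- livers. After ASNase, *Il1a* was called lower in *Atf4*-/- than in *Gcn2*-/- livers (-1.93 ± 1.09), where 3.19% of 9355 genes were called in either direction. It passed the minimum there only through the *Gcn2*-/- group, so it could be called in no direction but lower.

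Of 16 NF-kB target genes, 6 were called higher in *Gcn2*-/- and 7 in *Atf4*-/- livers, where 1.56% and 2.74% of testable genes were. The FPKM minimum was passed by 12 and 11 of the 16, and the median log2 response over the list was 2.39 and 2.04. *Cxcl1* and *Cxcl2*, chemokines that attract neutrophils, responded by 4.54 ± 1.09 and 4.29 ± 1.40 log2 in *Gcn2*-/- livers and by 5.17 ± 1.11 and 4.92 ± 1.57 in *Atf4*-/- livers. *Ccl2*, the monocyte chemokine, responded by 3.45 ± 1.34 in *Gcn2*-/- livers and had a value of 1.54 ± 1.58 in *Atf4*-/- livers that was not called. *Saa3*, an acute phase protein gene, responded by 4.85 ± 1.07 in *Atf4*-/- livers. Its value in *Gcn2*-/- livers was 3.83 ± 2.40 with overlapping intervals, from an already high 876 FPKM with PBS. With PBS, 1 of the 95 pathway genes was called higher in *Gcn2*-/- than in WT livers, *Saa3* (5.62 ± 1.56). *Lcn2* (3.88 ± 1.23) and *Cxcl1* (2.54 ± 1.17) were called higher in *Atf4*-/- livers, and none was called lower. In these comparisons 1.04% (*Gcn2*-/-, either direction) and 0.354% (*Atf4*-/-, higher) of testable genes were called. *Cxcl1* passed the minimum there only through the *Atf4*-/- group.

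**Figure D4:**
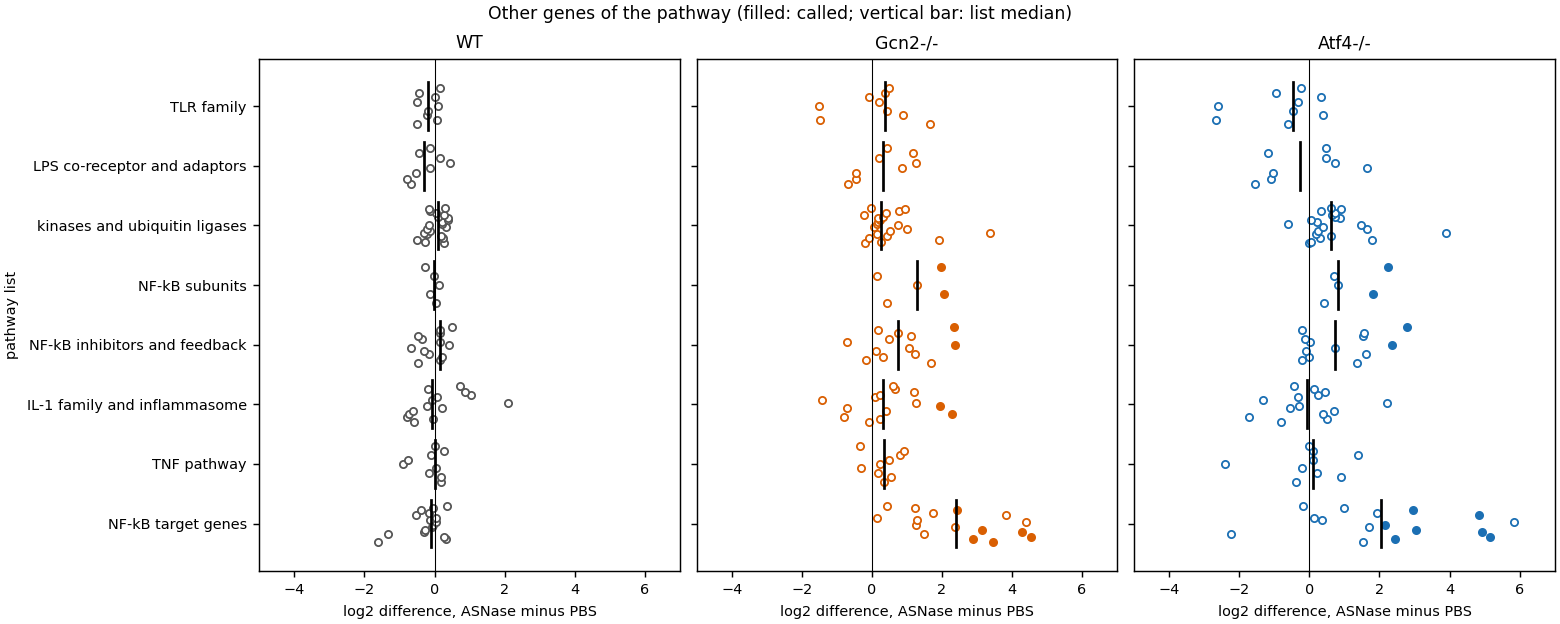
Each point is a gene of 8 pathway lists, set by list on the vertical axis and by its log2 difference between ASNase and PBS on the horizontal axis, with a panel per strain, filled points for called genes and a bar at the list median. No point is filled in WT, and the filled points in the knockouts lie among the NF-kB subunits, the inhibitors, the IL-1 family and the target genes.

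In whole liver, fewer cells of a type and less RNA per cell cannot be told apart. Summed marker levels are given in pairs, PBS first and ASNase second. The 12 Kupffer cell markers summed to 276 FPKM with PBS and 342 with ASNase in *Gcn2*-/- livers, to 478 and 318 in *Atf4*-/- livers, and to 430 and 235 in WT livers. Of the 12, 7 had a log2 response above 0 in *Gcn2*-/-, 2 in *Atf4*-/- and 0 in WT livers, with medians of 0.19, -0.75 and -0.83. The scavenger receptor gene *Marco*, from 8.32 to 118 FPKM in *Gcn2*-/- and from 9.22 to 67.3 in *Atf4*-/- livers, was called higher in both, and *Cd5l* (-1.55 ± 0.94) and *Folr2* (-2.27 ± 1.06) were called lower in *Atf4*-/- livers. The defining marker *Clec4f* had values of 67.3 and 15.9 FPKM in *Gcn2*-/- and of 102 and 30.1 in *Atf4*-/- livers, and *Adgre1*, a general macrophage marker, of 5.17 and 12.9, and of 10.9 and 4.56, none of them called.

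The 10 monocyte and macrophage markers, mostly *Lyz2*, summed to 67.2 and 160 FPKM in *Gcn2*-/- livers to 123 and 63.3 in *Atf4*-/- livers, and to 109 and 55.6 in WT livers. Of the 10, 5 had a log2 response above 0 in *Gcn2*-/-, 3 in *Atf4*-/- and 0 in WT livers. *Itgam*, an integrin of myeloid cells, was at 0.457 and 5.83 FPKM in *Gcn2*-/- livers, which was called, and at 0.916 and 4.10 in *Atf4*-/- livers, which was not. It passed the FPKM minimum only through the ASNase group in both strains, so it could be called in no direction but higher. In *Gcn2*-/- livers 1.56% of testable genes were called higher. The monocyte markers *Ly6c2* and *Ccr2* were at 0.0627 and 0.0446 FPKM in *Gcn2*-/- ASNase livers and at 0.0345 and 0.0573 in *Atf4*-/- ASNase livers. The 10 neutrophil markers summed to 12.9 and 3.95 FPKM in *Gcn2*-/-, to 18.7 and 7.81 in *Atf4*-/- and to 9.72 and 6.93 in WT livers, and *Ly6g* was listed at 0 in 5 of the 6 groups. *S100a9* was called lower in *Gcn2*-/- livers (-4.41 ± 2.13), where 340 of 9218 testable genes were called in either direction. It passed the minimum only through the PBS group, so it could be called in no direction but lower. The 8 sinusoidal endothelial markers summed to 81.9 and 82.3 FPKM in *Gcn2*-/- to 175 and 125 in *Atf4*-/- and to 154 and 132 in WT livers. The 8 stellate cell markers summed to 121 and 98.2 FPKM in *Gcn2*-/-, to 159 and 129 in *Atf4*-/- and to 149 and 155 in WT livers. *Col3a1* was called lower in *Atf4*-/- livers (-3.47 ± 1.05), where 699 of 9485 testable genes were called in either direction. It also passed the minimum only through the PBS group. The 8 T and B cell markers summed to 3.89 and 1.43 FPKM in *Gcn2*-/-, to 5.35 and 0.999 in *Atf4*-/- and to 6.42 and 1.78 in WT livers. Hepatocyte markers summed to 27289 and 12507 FPKM in *Gcn2*-/- to 24462 and 9554 in *Atf4*-/- and to 24106 and 21110 in WT livers. One of them, *Fgb*, was listed at 0 with a failed estimate in both knockout ASNase groups, and without it the sums were 23246.5 and 12507 in *Gcn2*-/- and 19543 and 9554 in *Atf4*-/- livers. The part of these shifts in the values of the 10 genes was not tested.

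**Figure D5:**
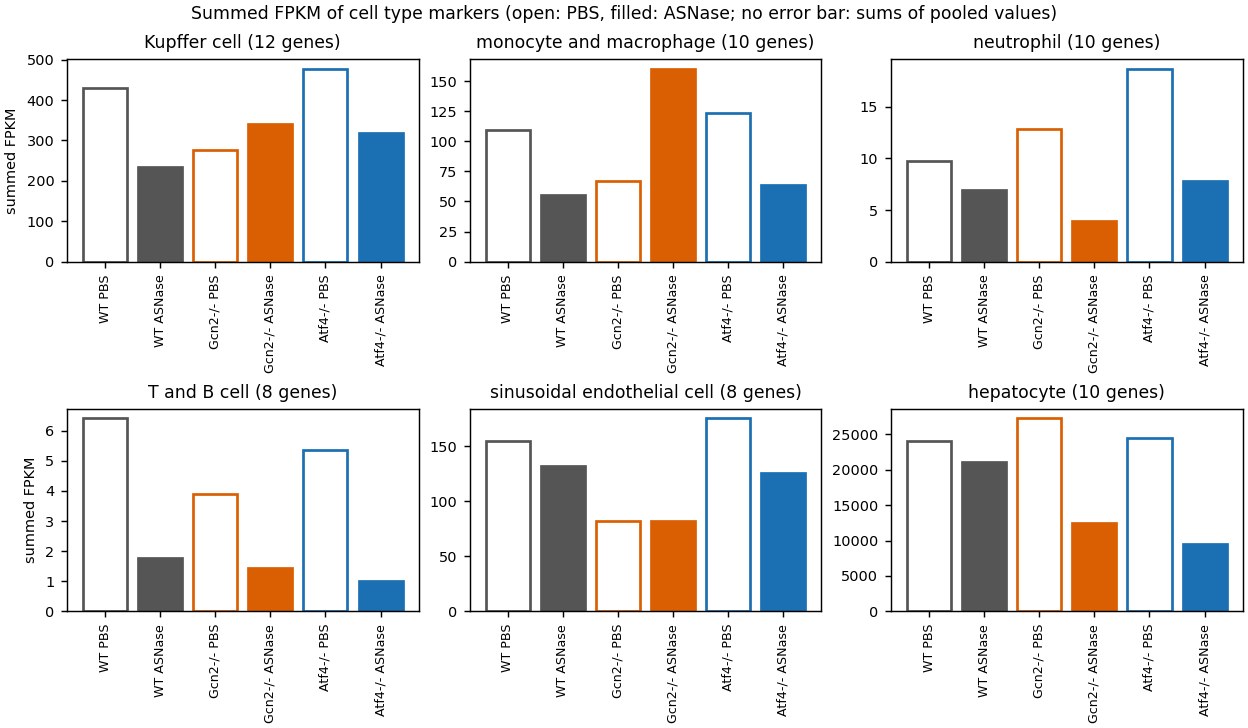
Bars show the summed FPKM of the markers of 6 cell types in the 6 groups (open for PBS, filled for ASNase), on linear axes from 0 with a scale per panel and no error bar. Neutrophil and T and B cell sums are lower with ASNase than with PBS in each strain, hepatocyte sums are lowest in the knockout ASNase groups, and the monocyte and macrophage sum is highest at 160 FPKM in *Gcn2*-/- ASNase livers.

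The pattern of the 10 genes over the 6 groups was compared with 10164 other genes by Pearson's r with their mean standardized profile. The most alike were *Cxcl13*, a chemokine for B cells, with an r of 0.998, *Nfil3*, *Serpina3i*, *Itgam*, *Csgalnact2*, *Myef2*, *Ilf2* and *AI837181*. *Cxcl13* was at 1.56 FPKM with PBS and 116 with ASNase in *Gcn2*-/- livers, and at 5.96 and 124 in *Atf4*-/- livers. In all, 310 genes had an r over 0.95, and all such values rest on 6 pooled points that share their libraries. Among the 10 genes, the r of each with the mean of the others was 0.99 for *Tlr2*, 0.85 for *Il1rn*, 0.60 for *Tnf* and -0.53 for *Tlr4*.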

How the data were processed

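RNA-Seq of poly-A RNA from 18 mouse livers was used, in 6 groups of 3 set by the sample labels. The authors prepared libraries without strand information, mapped single-end reads to the mm10 build (TopHat, Bowtie), merged Cufflinks transcripts and ran Cuffdiff. The deposited FPKM values are 1 Cuffdiff estimate per group from its 3 libraries together, with an interval and a status. Each of its value columns names a group, and 0 columns were unmapped. Of 37303 genes, 45 had a status other than OK in a group. Depth is unknown from FPKM, so precision was taken from the intervals.

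Calls were made on the whole table with a pseudocount of 0.1 FPKM, a minimum of 3 FPKM in either group, a log2 limit of 1.5 and separate intervals (Python 3.11.15, pandas 2.3.3, numpy 2.4.6), after the FPKM and fold limits of the study's methods. The rule was tested on simulated data. No p-value was computed. Every one of the 10 genes is named, plus up to 4 genes of each pathway list that were called in an ASNase response and had the largest response, and the 8 genes most alike in pattern. The members and lists were chosen with earlier results of these data known. Alternatives changed the pseudocount, the FPKM minimum, the log2 limit, the error rule and the scaling. Promoter letters came from RefSeq and positions from GENCODE vM21, in which no exon of the 10 genes overlaps an exon of another gene. The Cuffdiff locus of *Il1b* runs to base 129375748, past its GENCODE end at 129371139.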

Additional observations from a re-analysis of the deposited data

Results flagged for a closer look

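The ASNase responses below differed between strains by more than 1.5 log2 units and by more than the combined error of the 4 intervals. Each is a difference of pooled estimates with no replicate test. In *Gcn2*-/- relative to WT livers the response was higher by 5.36 for *Cd14*, 4.52 for *Tnfaip3*, 3.16 for *Il1r1*, 3.03 for *Tlr2*, 2.97 for *Il1b* and 2.68 for *Lbp*. In *Atf4*-/- relative to WT livers it was higher by 5.35 for *Cd14*, 4.73 for *Tnfaip3*, 3.84 for *Il1rn*, 2.25 for *Il1r1* and 2.21 for *Tlr2*. In *Atf4*-/- relative to *Gcn2*-/- livers the response was -2.03 for *Il1b* and 2.68 for *Il1rn*. Comparisons with the same WT groups share those groups.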

How the results depend on the processing

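The counts of the 10 genes called in each ASNase response and in each knockout against WT after ASNase were within 1.5 times of the reported ones under every alternative run. Between *Atf4*-/- and WT livers given PBS, 0 genes were called with a pseudocount of 1 FPKM, since *Il1r1* fell to 1.39. Between the *Atf4*-/- and *Gcn2*-/- ASNase livers, 1 gene was called with FPKM over 1 or with no filter (*Tnf*, -2.71), and 1 with the combined error in place of separate intervals (*Il1rn*, 1.75). Between *Gcn2*-/- and WT livers given PBS, 1 was called with the combined error (*Il1rn*, 1.82). The combined error also called *Lbp* in *Gcn2*-/- livers (2.59). Against WT livers after ASNase it also called *Lbp* in *Gcn2*-/- (2.975) and *Atf4*-/- livers (2.91) and *Il1b* in *Atf4*-/- livers (2.13). Of the values of single genes and counts over all genes, 597 stayed on their side of the limits, 17 passed them under an alternative and 2 no longer did, *Il1r1* above and *Tlr2* in *Atf4*-/- livers (1.33). Over all genes, calls went from 80 to 124 in the WT response, from 93 to 144 and from 101 to 153 in the PBS comparisons of *Gcn2*-/- and *Atf4*-/- with WT, all with no filter, and from 298 to 452 between the knockouts after ASNase with the combined error. Scaling by median ratios used factors of 0.978 to 1.03 and changed no direction.

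No paired analysis was possible because the table holds 1 value per group and none per mouse, and leaving out each replicate was not run for the same reason. The intervals, not read counts, limit what can be detected, most of all for *Tnf* and *Tlr4* under 3 FPKM and for *Lbp* with its wide bounds. Sex was not balanced between groups and muscle RNA differed between strains, with no adjustment for either.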
